A study of Mus musculus with 4 samples.

Results

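The Inhba locus was described from 19 consensus peaks of open chromatin, out of 23595 in the table, chosen as every row whose nearest annotated gene was Inhba. The assay was ATAC-seq, in which a transposase cuts open DNA and tags it for sequencing, on neutrophils flow sorted from mouse bone marrow and not cultured. The KO group was Morrbid deficient on a C57BL6 background (2 libraries) and the WT group was C57BL6 (2 libraries); neither the ages of the animals nor the Morrbid allele are given in the labels. Each genotype was transposed in duplicate from 50000 cells, and no label names separate animals; the p-values below therefore reflect differences between libraries that may be technical. Inhba was chosen by its KO and WT signals, so their differences at these peaks are given as a description, with no test.

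Inhba encodes the beta A subunit of activins and inhibins, secreted dimers of the TGF-beta family. Activin A, the dimer of a pair of beta A chains, binds a type II receptor (Acvr2a or Acvr2b), which recruits the type I receptor Acvr1b, and the signal reaches the nucleus through SMAD2, SMAD3 and SMAD4. Follistatin, the product of Fst, binds activin and blocks it. Bone marrow neutrophils are known to store activin A and to release it during inflammation.

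No peak of the table lay over the Inhba transcription start site (TSS), which the deposited distances place at 16106308 of chromosome 13 in the mm9 build. The last peak before it ended 1730 bp upstream and the first peak after it began 3053 bp downstream, leaving 4783 bp with no listed peak. The start site region is shown because all 19 peaks are assigned to it although none covers it. RefSeq gives the 250 bases before the start on the plus strand in the later build GRCm38.p6 (chr13:16011601-16011850); capitals mark matches to the motifs searched.
Inhba promoter: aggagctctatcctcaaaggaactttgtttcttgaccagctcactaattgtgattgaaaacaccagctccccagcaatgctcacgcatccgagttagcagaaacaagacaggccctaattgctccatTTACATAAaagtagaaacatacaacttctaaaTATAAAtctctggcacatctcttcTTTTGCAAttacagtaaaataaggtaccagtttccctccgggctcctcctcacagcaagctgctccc
The stretch was 43.2% G or C and held 3 CpG dinucleotides, against medians of 52.4% and 6 over 32851 RefSeq promoter windows of the same length. A TATA box (TATAAA, either strand) began at base 160 and is found in 12.4% of those windows. A loose C/EBP pattern (TTNCNNAA, either strand) occurred at bases 128 and 184 and is found in 36.8% of windows. The GC box GGGCGG, the AP-1 site TGANTCA and GAGGAA, a longer form of the ETS core GGAA, had no match on either strand. They are found in 32.7%, 6.75% and 23.3% of windows. The core GGAA alone was not searched for, and its letters do occur in the stretch. Positions are counted from 1 at the 5′ end, and a match is a description of the letters, not of binding.

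The libraries were compared before the locus was described. With 1 step between deposited values counted as 1 read, the KO libraries had 6182922 and 7930547 reads within peaks and the WT libraries 3577922 and 3803711, so depth differed with genotype and cannot be told apart from it. Both intronic peaks of Morrbid, listed as Gm14005, were at or under 0.883 in both KO libraries and lay between 120 and 166 in the WT libraries. Of 17 neutrophil marker genes 11 had a promoter peak, and these summed to 4527 and 4607 in KO and to 4934 and 4255 in WT. Of these 11 peaks 2 were called lower in KO (limma adjusted p below 0.05) and 0 higher. Named after their values were seen, they were those of the granulocyte colony-stimulating factor receptor gene Csf3r (96.2 and 89.4 in KO, 148 and 175 in WT, log2 fold change -0.79, adjusted p = 0.0112) and of the chemokine receptor gene Cxcr4 (1053 and 1032 in KO, 1337 and 1215 in WT, log2 fold change -0.29, adjusted p = 0.0168). Both calls were lost without either KO library and in limma without a mean-variance trend, and that of Cxcr4 under median centring (adjusted p = 0.0562). Ly6g, Mpo and Elane, which also define neutrophils and their precursors, had none. No promoter peak was listed for the 7 eosinophil, 7 mast cell and basophil, 7 B cell or 8 T and NK cell markers. Of 11 monocyte and macrophage markers 4 had one, with sums of 371.8 and 349.9 in KO and 371.3 and 347.9 in WT. Promoter peaks were listed for 4 of 7 stem and progenitor markers (690 and 649.9 in KO, 719 and 715 in WT). The part of depth and of these cells in the differences at Inhba was not tested.

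The Inhba peaks formed 3 runs along the chromosome. An upstream run of 5 peaks spanned 37.8 kb, from -100.1 to -63.2 kb of the TSS, and carried 50.7% of the locus signal. A pair of peaks stood near the TSS, at -2.2 and +3.3 kb, with 15.5% of the signal. The remaining 12 lay between +178.7 and +802.6 kb and held 33.7%. By annotation 18 were intergenic, 1 lay in the second intron of Inhba and 0 at a promoter, where intergenic peaks made up 31.4% of the whole table. Of the 19 peaks 13 lay more than 100 kb from the TSS, as did 8.23% of all peaks. Only 11 of 11693 genes had at least 19 peaks assigned to them.

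**Figure D1:**
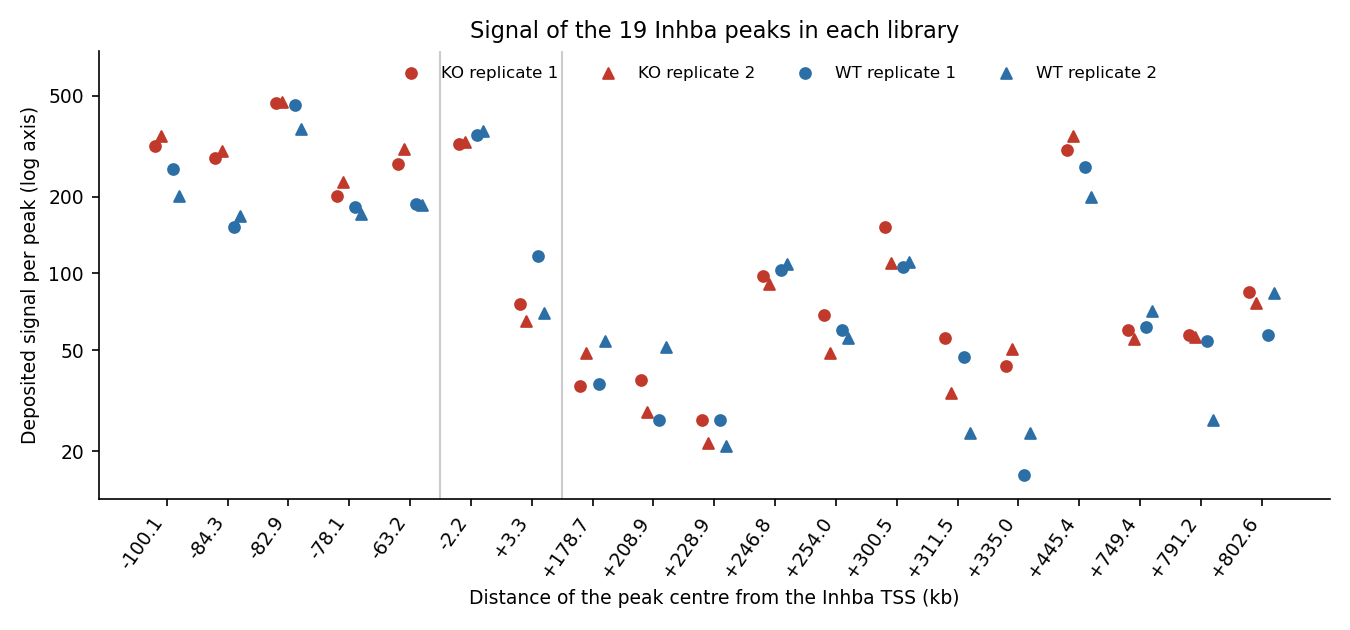
Deposited signal (log axis) of each of the 19 Inhba peaks, ordered by distance of the peak centre from the TSS in kb, with 1 point per library, KO in red and WT in blue; vertical lines separate the upstream run, the pair near the TSS and the downstream peaks. All 5 upstream peaks have both KO points above both WT points, while at -2.2 kb both KO points lie below.

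Taken over the locus, the signal summed to 2963 and 3021 in the KO libraries and to 2562 and 2359 in the WT libraries, which is 1.22-fold higher in KO by the group means. Both KO libraries lay above both WT libraries at 8 of the 19 peaks (42.1%), where 28% of all peaks in the table and 37% of the 1184 peaks of chromosome 13 did so. Both lay below at 3 peaks (27.3% over the table), and the groups overlapped at 8. The difference of mean log2(signal + 1), KO minus WT, was positive at 12 peaks (49.8% over the table) and negative at 7, with a range from -0.36 to 1.22 and a median of 0.21, beside a median of -0.002 over all peaks and 0.11 on chromosome 13. These counts come from the contrast for which the locus was chosen, and nothing is read from them.

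Of the runs, the upstream one had the highest ratio of KO to WT signal. Each of its 5 peaks had both KO libraries above both WT libraries, and their log2 differences ran from 0.19 to 0.87. Summed over the run, the signal was 1540 and 1659 in KO and 1239 and 1095 in WT, a mean of 1600 ± 84.4 in KO and 1167 ± 101.3 in WT (SD, n = 2 each) and a ratio of 1.37. The gap of 301 between the lowest KO and the highest WT library was wider than the gaps within the KO pair (119) and the WT pair (144).

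The peak at -84.3 kb (16021736 to 16022192) differed most within the run. Its signal was 284 and 303 in the KO libraries, against 153 and 168 in the WT libraries. The groups were well apart, with a mean of 293.9 ± 13.5 in KO and 160.5 ± 11.2 in WT (1.83-fold, log2 difference 0.87). It rested on 760 KO and 225 WT reads, which put a 95% exact conditional interval of 1.58 to 2.14 on the ratio. Such intervals cover counting error only, take no account of the choice of the locus by these values, and are no test.

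The next peak, at -82.9 kb (16023107 to 16023803), began 915 bp further on and was the strongest of the locus. Its signal was 469 and 472 in KO, against 459 and 369 in WT. Here KO replicate 1 lay just above WT replicate 1, and the log2 difference was 0.19, near the spread of 0.16 between libraries of a group (pooled SD), and 0.03 without WT replicate 2. The ratio of the -84.3 kb to the -82.9 kb peak within a library was 0.606 and 0.643 in KO and 0.332 and 0.457 in WT, so these close neighbours differed unequally between the genotypes.

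The peak at -63.2 kb (16042779 to 16043499) had a signal of 268 and 309 in KO, against 188 and 185 in WT (1.55-fold, log2 difference 0.62). The peak at -100.1 kb (16005745 to 16006764) was annotated to an ORR1B2 LTR element. Its signal was 316 and 346 in KO, against 257 and 202 in WT (1.45-fold, log2 difference 0.54). The groups were apart at both, though at -100.1 kb the WT libraries differed from each other by nearly as much as the groups did at their closest. At -78.1 kb (16027628 to 16028740), the widest peak of the locus at 1114 bp, the signal was 202 and 229 in KO, against 182 and 171 in WT (log2 difference 0.28).

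The peaks nearest the gene did not share that direction. At -2.2 kb (16103668 to 16104578) the signal was 321 and 330 in KO, against 349 and 363 in WT. Both KO libraries lay below both WT libraries, by a small amount (log2 difference -0.13). In the second intron, at +3.3 kb (16109361 to 16109842), the signal was 75.9 and 65.1 in KO, against 117 and 69.6 in WT. WT replicate 2 lay between the KO libraries, so the groups overlapped, and the log2 difference of -0.36 was within the pooled SD of 0.39; without WT replicate 1 it was 0.02. Summed over the pair, KO libraries had 397 and 395 and WT libraries 467 and 433, a ratio of 0.881.

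**Figure D2:**
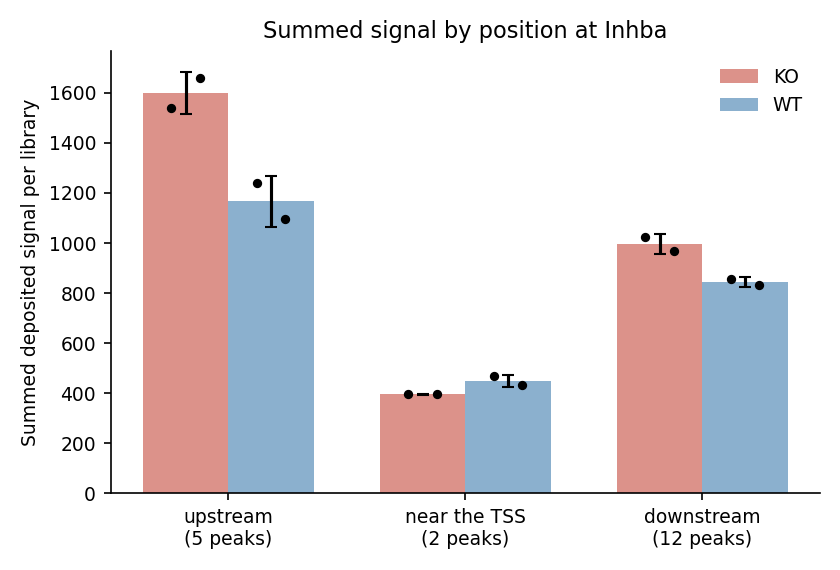
Summed deposited signal of the 5 upstream, 2 TSS-near and 12 downstream Inhba peaks in KO (red) and WT (blue); bars are group means, error bars the SD of 2 libraries and points the libraries. The KO sums are above the WT sums upstream (1600 against 1167) and downstream (996 against 844), and below them near the TSS (396 against 450).

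Most of the 12 downstream peaks were weak and differed little. Their mean signal ran from 23.8 to 279, where the median over all peaks was 123. The groups overlapped at 7 of them, with log2 differences from -0.16 to 0.37, and KO lay below WT at 2, at +246.8 kb (98.0 and 90.8 in KO, 103 and 109 in WT) and +749.4 kb (60.05 and 55.4 in KO, 61.6 and 71.0 in WT). KO lay above WT at 3. Summed over the 12 peaks, the signal was 1025 and 967.2 in KO and 857.1 and 830.9 in WT, a ratio of 1.18.

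The strongest of the downstream peaks, at +445.4 kb (16551308 to 16552114), had a signal of 305 and 347 in KO, against 263 and 200 in WT (1.41-fold, log2 difference 0.50). Its values resembled those of the -100.1 kb peak in every library. The peak at +335.0 kb (16441098 to 16441438) had the largest log2 difference of the locus, 1.22, with 43.3 and 50.6 in KO, against 16.1 and 23.7 in WT. Both WT libraries were well under both KO libraries, but on 11 and 17 reads, and the interval on the ratio of 2.37 ran from 1.56 to 3.71. At +791.2 kb (16897151 to 16897779) the signal was 57.4 and 56.1 in KO, against 54.3 and 26.4 in WT. Both KO libraries lay just above WT replicate 1, and only WT replicate 2 was well below them.

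The overlapping downstream peaks were at +178.7, +208.9, +228.9, +254.0, +300.5, +311.5 and +802.6 kb. The +300.5 kb peak was the strongest of these, with 152 and 110 in KO and 106 and 111 in WT, and KO replicate 1 alone stood out. At +208.9 kb the WT libraries enclosed the KO libraries, with 38.0 and 28.4 in KO and 26.4 and 51.5 in WT. At 9 of the 19 peaks at least 1 library had under 50 reads, so the differences there were the least precise of the locus.

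Several properties not used to choose the peaks were compared with the rest of the table. Their median length was 483 bp, close to the 471 bp of the 7411 intergenic peaks, and their median signal was 82.0 beside 92.8 for intergenic peaks. Repeats were annotated under 5 of the 19 (26.3%), beside 20.5% of intergenic peaks: an ORR1B2 LTR element at -100.1 kb, an L2c LINE at +208.9 kb, a B4 SINE at +335.0 kb, an Lx8 LINE at +445.4 kb and an L1M4 LINE at +791.2 kb. All 3 downstream peaks where KO lay above WT thus had a repeat annotation, as did 1 of the 9 others downstream. Of the 14 peaks with no repeat annotation 4 had KO above WT, all of them upstream. Reads in repeats can be placed differently by other mapping filters, and which filter was used is not given in the sources used here. The split by KO and WT uses the signals by which the locus was chosen, and a part of read placement in it was not tested.

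Stronger peaks tended to have higher KO signal across the table, so strength was set beside the differences. Of the 9 Inhba peaks with a mean signal of at least 100, 6 had KO above WT and the median log2 difference was 0.28, beside 35.6% and a median of 0.06 among the 3394 intergenic peaks of that strength. Of the 10 weaker ones 2 did, with a median of 0.01, beside 21.4% and -0.04 among 4017 intergenic peaks. Across the 19 peaks the correlation of log2 mean signal with the log2 difference was weak (Pearson's r 0.14, Spearman's rho 0.14), as it was over all peaks (0.19 by both); peaks share the libraries and are no independent replicates.

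**Figure D3:**
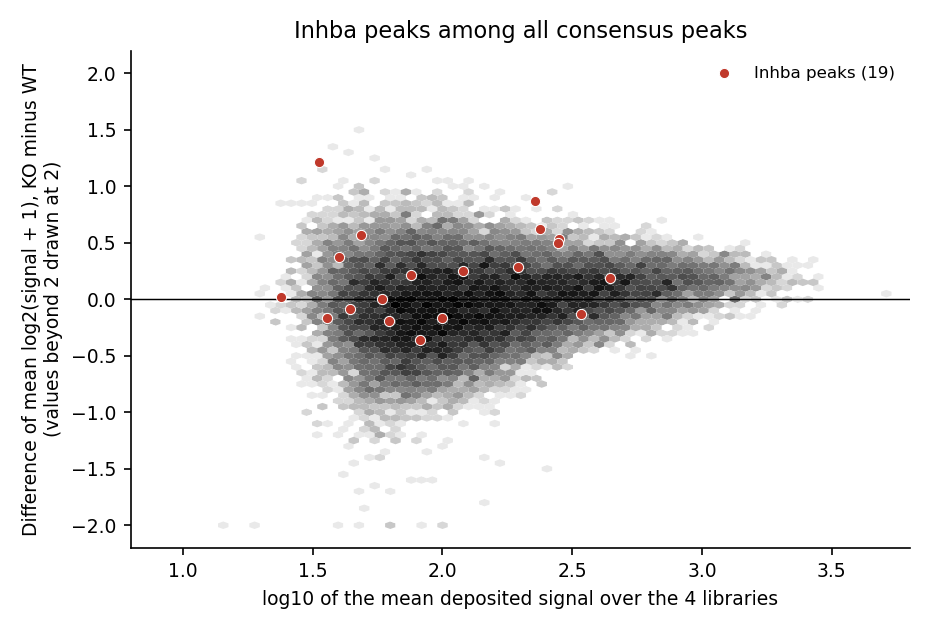
Difference of mean log2(signal + 1), KO minus WT, against log10 of the mean deposited signal, for the 19 Inhba peaks (red) over all other peaks (grey, darker where peaks are denser). The peak at +335.0 kb (1.22) lies at the low end of signal and the peak at -84.3 kb (0.87) in the stronger range, both near the upper edge of the cloud.

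The peaks of other genes within 1 Mb of the Inhba TSS were not used to choose the locus and were tested. There were 7, of which 1 was called higher in KO (limma adjusted p below 0.05), 0 lower and 6 not called. Of all peaks tested, 6.08% were called higher and 4.55% lower, and 9.71% of those on chromosome 13 were called higher. By unadjusted p under 0.05, 3 were higher and 0 lower. The called peak (15982720 to 15983629) lay -123.1 kb from the Inhba TSS, next to the upstream run, and is assigned to A530046M15Rik, a gene listed as non-coding. Its signal was 299 and 317 in KO, against 205 and 196 in WT, with the groups well apart. Limma gave a log2 fold change of 0.61 (SE 0.143, adjusted p = 0.00722). The call was lost without KO replicate 1 (adjusted p = 0.0906), without KO replicate 2 (0.2) and in limma without a mean-variance trend (0.124), and held in the other alternatives (range over all of them 0.000993 to 0.2).

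Going further upstream, both KO libraries lay above both WT libraries at 4 of the 6 neighbouring peaks on that side, all 4 assigned to A530046M15Rik, where 28% of all peaks and 37% of those on chromosome 13 did so. At -166.3 kb the signal was 91.0 and 87.3 in KO, against 64.6 and 61.2 in WT (log2 fold change 0.50, limma adjusted p = 0.189). At -168.1 kb it was 155 and 170.4 in KO, against 129 and 118 in WT (log2 fold change 0.39, limma adjusted p = 0.174). Neither passed. Between the called peak and the upstream run stood a weak peak at -111.2 kb, with 29.1 and 29.1 in KO, against 41.1 and 40.4 in WT (log2 fold change -0.47, limma adjusted p = 0.399), so the higher KO signal was not shared by every peak of the stretch. The peak at -254.9 kb, assigned to 4933412O06Rik (-0.30), and the only one on the downstream side, in an intron of Sugct (0.01), did not pass either.

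**Figure D4:**
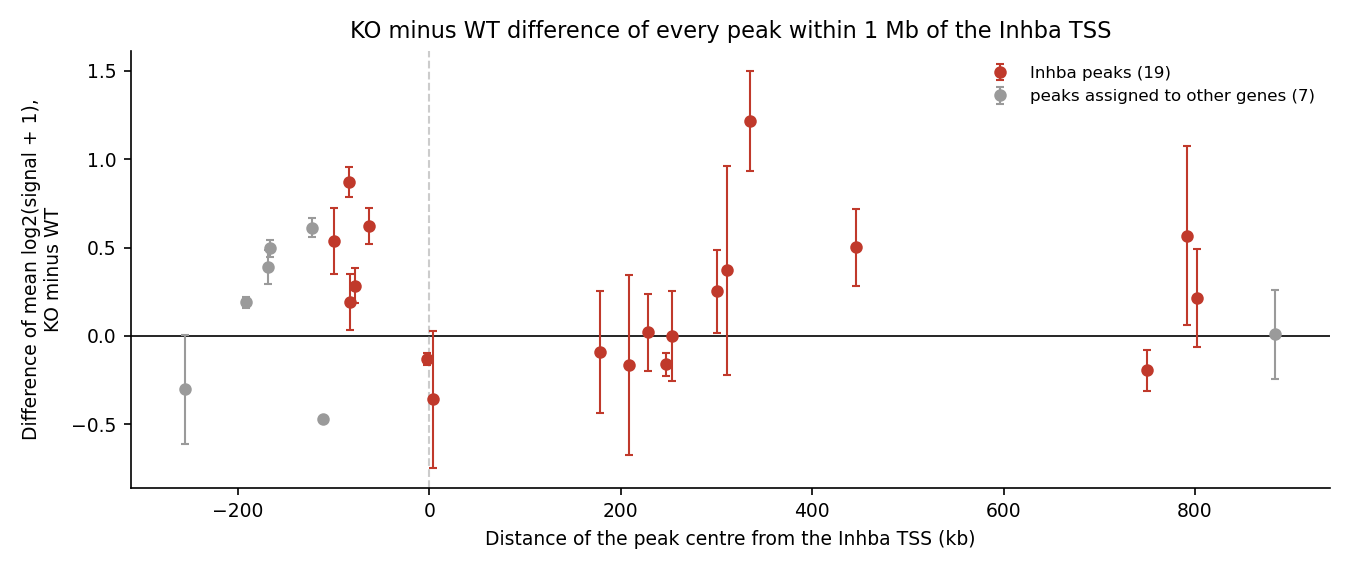
Difference of mean log2(signal + 1), KO minus WT, of every peak within 1 Mb of the Inhba TSS against distance from it in kb, for 19 Inhba peaks (red) and 7 peaks of other genes (grey); error bars are the pooled SD between libraries of a group. Positive differences gather between -191.8 and -63.2 kb, with an exception at -111.2 kb (-0.47).

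A list of genes around Inhba on chromosome 13 had 25 peaks at 9 genes, 1 of them the Sugct peak counted above, and 4 were called higher and 0 lower, beside the 6.08% called higher over the table and 9.71% on chromosome 13. The list was partly misplaced. Stk17b, with 3 of these peaks and no call, lies on chromosome 1. The 11 peaks of 1700016G22Rik begin between 5510983 and 5844320 of chromosome 13, far from the Inhba TSS. The promoter of Mplkip, beginning at 17786367, was higher in KO (1789 and 1780 in KO, 1284 and 1223 in WT, log2 fold change 0.51, limma adjusted p = 3.16e-05). Both listed peaks of the kinase gene Cdk13 were higher too, one at its first exon (log2 fold change 0.39, limma adjusted p = 0.0150) and one in its first intron (log2 fold change 0.996, limma adjusted p = 0.0379), as was a peak of 1700016G22Rik (log2 fold change 0.70, limma adjusted p = 0.0324). Leaving out a library lost 3 of these 4 calls without KO replicate 1, 2 without KO replicate 2, and 1 each without WT replicate 1 or 2, while Mplkip held in each of these fits. In limma without a mean-variance trend all 4 were lost (adjusted p from 0.125 to 0.315), as were 2 under scaling to the total over peaks and 1 under cyclic loess.

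Other genes of the activin pathway were mostly not called. The lists held 50 genes, of which 31 had a peak, and of their 96 peaks 7 were higher in KO (7.29%), 4 lower (4.17%) and 85 not called, close to the 6.08% and 4.55% of the whole table. Their median log2 fold change was -0.06 as deposited, 0.00 under median centring and -0.12 under scaling to the total over peaks, and ran from -0.11 (without WT replicate 1) to -0.00 (without WT replicate 2) with a library left out. Among ligands, the inhibin alpha gene Inha and the genes Inhbb, Inhbc and Inhbe of the remaining beta subunits had no peak. Of 17 peaks of other TGF-beta family ligands 2 rose and 1 fell. Both that rose lay near 200 kb from the TSS of Tgfb2, which encodes TGF-beta 2. The first had a signal of 138 and 153 in KO, against 74.8 and 55.7 in WT (log2 fold change 1.16, SE 0.223, limma adjusted p = 0.00163). The second had a log2 fold change of 0.52 (limma adjusted p = 0.0392). A peak upstream of Gdf15, a stress-induced member of the family, fell to 35.3 and 52.7 in KO, against 64.6 and 110 in WT (log2 fold change -0.95, limma adjusted p = 0.0385).

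Activins are made as precursors cut by furin-type proteases. Of the 3 peaks of Furin 2 fell, at -21043 bp from its TSS (103 and 76.9 in KO, 156 and 147 in WT, log2 fold change -0.76, limma adjusted p = 0.0194) and in its first intron (67.1 and 54.0 in KO, 95.4 and 109 in WT, -0.75, limma adjusted p = 0.0458). Pcsk5 and Pcsk6 had no peak. None of 9 peaks of receptors and co-receptors was called by limma, with a median log2 fold change of 0.40. The promoter of Acvr2a, the type II receptor gene, had a signal of 236 and 261 in KO and 233 and 288 in WT, with overlapping groups (log2 fold change -0.06, limma adjusted p = 0.828).

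Among antagonists 1 of 12 peaks rose, in the first intron of Fst, with 283 and 333 in KO, against 258 and 185 in WT (log2 fold change 0.49, SE 0.158, limma adjusted p = 0.0462). Of 24 peaks of SMADs and their partners 2 rose and 1 fell. Both that rose lay downstream of the TSS of Trim33, a ubiquitin ligase that acts on SMAD complexes: the stronger had 491 and 536 in KO, against 323 and 348 in WT (log2 fold change 0.61, limma adjusted p = 0.00140), and the other a log2 fold change of 0.38 (limma adjusted p = 0.0435). The one that fell lay in the first intron of Smad3, with 89.2 and 116 in KO, against 151 and 177 in WT (log2 fold change -0.68, limma adjusted p = 0.0279). Of 31 peaks of SMAD2 and SMAD3 target genes 2 rose. They were the promoter of Skil, a repressor of SMAD signalling (1834 and 1860 in KO, 1369 and 1539 in WT, log2 fold change 0.35, limma adjusted p = 0.00198), and a peak at -196758 bp of the cyclin-dependent kinase inhibitor gene Cdkn2b (361 and 357 in KO, 241 and 232 in WT, 0.60, limma adjusted p = 0.00504).

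These 11 pathway calls depended on single libraries and on the model. All 11 were lost without KO replicate 2 (limma adjusted p from 0.0724 to 0.573) and in limma without a mean-variance trend (0.102 to 0.252). Without KO replicate 1, 4 held: the Tgfb2 peak with the log2 fold change of 1.16, the stronger Trim33 peak, the upstream Furin peak and the Skil promoter. Without WT replicate 2, 7 held, and without WT replicate 1 all 11. Cyclic loess kept 4, scaling to the total over peaks 8 and median centring 9.

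**Figure D5:**
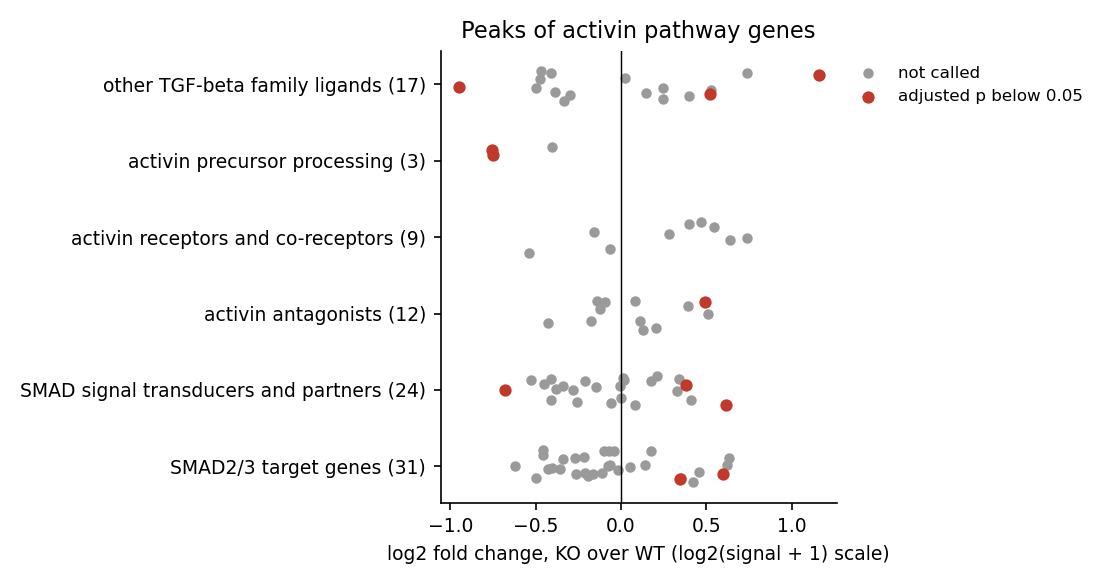
Limma log2 fold change, KO over WT, of each of the 96 peaks of activin pathway genes, by role, with the number of peaks in brackets; red points are called at an adjusted p below 0.05 and grey points are not. Called peaks stand on both sides of 0, with 7 higher and 4 lower.

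Averaged over its 19 peaks, the log2(signal + 1) of Inhba stood at 0.16 and 0.08 above its own mean in KO replicates 1 and 2, and at -0.09 and -0.15 in WT replicates 1 and 2. Among 950 genes with at least 5 peaks, the 5 with the most similar profile over the 4 libraries were Dusp16, Bank1, 4921511I17Rik, Sec22c and Tiam2, at Euclidean distances from 0.0194 to 0.0472. Their own mean log2 differences were 0.23, 0.25, 0.21, 0.21 and 0.26, beside 0.24 for Inhba. A profile of 4 libraries holds little information, and likeness over it is no more than a description.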

How the data were processed

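ATAC-seq libraries of KO and WT neutrophils, 2 each, were grouped by title. Per the submitters' processing notes, the tools included HOMER, DiffBind, MACS2 2.1.0, BWA, Trimmomatic 0.32, R 3.1.1 and bcl2fastq 2.16.0, and the build was mm9. Their order, the peak calling settings, duplicate removal and any shift of reads for the Tn5 offset were not stated. The authors deposited a normalised signal per consensus peak and library, with the nearest TSS, per the file headers. All values of a library were whole multiples of 1 step (tolerance 0.001), taken as 1 read for depth and intervals; no count model was used.

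Each peak's log2(signal + 1) was fitted with limma 3.58.1 (R 4.3.3), KO over WT, using moderated two-sided tests with a mean-variance trend and Benjamini-Hochberg adjustment over all 23595 peaks; a pseudocount of 1 understates changes of weak peaks. The procedure was tested on simulated data with the same added spread between libraries at every peak. The dependence of the calls on single libraries and on the model was not part of it. All Inhba peaks passed the filter on a mean signal above 1, and all were described. Among neighbours and each pathway list, up to 4 called peaks of lowest p were named, or the one nearest a TSS. Members and lists were chosen with earlier results of these data known. Gene IDs of 23568 peaks matched RefSeq (GRCm38.p6), used for names and the promoter sequence. No genome of the mm9 build was used here, so peak sequences are not shown.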

Additional observations from a re-analysis of the deposited data

How the results depend on the processing

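The count of Inhba peaks with both KO libraries above both WT libraries was 8. It was 13 without KO replicate 2 and stayed within 1.5 times of 8 under the other alternatives (range over libraries left out, 8 to 13). Leaving out a library can only keep or raise this count, so it could not have fallen below 8 there. All 5 upstream peaks had a positive difference in each of the 11 alternatives. Both KO libraries already lay above both WT libraries at each of them. Only the 3 rescalings (median centring, total scaling and cyclic loess) could therefore have turned a sign. The median ran from 0.36 (without WT replicate 2) to 0.64 (without WT replicate 1). Under cyclic loess and under scaling to the total, 4 of the 5 were separated. For single Inhba peaks, leaving out 1 library cannot move a difference by more than the pooled SD. The fits without a mean-variance trend, with the replicate block or with a higher signal filter cannot move it at all. Of 203 recomputed differences 199 moved by less than the pooled SD. Many did so by construction, and no stability is read from the count. The other 4 were those at -2185 bp under median centring (-0.06), total scaling (-0.18) and cyclic loess (-0.19), and at 246794 bp under cyclic loess (-0.08). Small differences still turned sign, in 3 peaks without WT replicate 1 (at 3293, 254018 and 802603 bp), in 4 without WT replicate 2 (at 178678, 208884, 228927 and 311483 bp), in 2 without KO replicate 1 and 2 without KO replicate 2, and in 1 under each of the 3 rescalings. Over all peaks, 1434 were higher and 1074 lower. Higher calls numbered 2248 under median centring (777 lower), 879 under total scaling (1319 lower), 807 under cyclic loess (888 lower) and 0 in limma without a trend (22 lower), where the fit with the trend had 3232 higher and 2949 lower before adjustment (p under 0.05). Leaving out a library gave 185 to 2610 higher and 237 to 2189 lower. The share of higher calls was 57.2% as deposited, 74.3% under median centring and 40% under total scaling. The neighbour called higher became 0 without the trend, and 0 to 1 with a library left out. Pathway calls were 7 higher and 4 lower as deposited. They were 12 and 2 under median centring, 4 and 6 under total scaling, and 4 and 3 under cyclic loess. They were 0 and 0 without the trend, and 0 to 14 higher and 0 to 9 lower with a library left out. The cause was not tested. The replicate numbers are shared between genotypes, but the labels do not say that they pair the libraries, and same-numbered libraries did not deviate together (correlation across peaks -0.0392). With the replicate block, 1656 peaks were higher and 1279 lower, 1 neighbour was higher, 9 pathway peaks were higher and 6 lower, 10 Inhba peaks had KO above WT in both same-numbered pairs, and no named call changed. Fits with 1 library left out assume that the lone library varies like the other pair.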

Other observations

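The other 10 genes with at least 19 peaks give a frame for the Inhba values, as a description. Irf2bp2, a transcriptional co-repressor gene with 24 peaks, had both KO libraries above both WT libraries at 13 and a median log2 difference of 0.24. Mbnl1, which encodes a splicing regulator, had 10 of 21 peaks with both KO libraries below both WT libraries and a median of -0.09. Maf, a macrophage-associated transcription factor gene, had 8 of 24 below and a median of -0.10. Over all peaks, both KO libraries lay above both WT libraries at 28% and below at 27.3%, and nothing is read from these counts. The remaining 7 genes (Mir6388, Zfp608, Tgfbr2, Zfat, Atp2b1, Mir1907 and Kcnj2) had medians from -0.08 to 0.08, beside 0.21 at Inhba, which was chosen for its differences.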
